A study of Arabidopsis thaliana with 11 samples.

Results

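Guard cells of Arabidopsis thaliana Col-0 plants that had received tap water and no NaCl are described here from the 4 no-salt samples, of 11 samples in the series. The samples were chosen by their treatment label, and all 28718 loci of the deposited table of normalised levels were kept, so no measured value entered the choice. Watering treatments began when plants were 4 to 5 weeks old, in pots of soil under a 12 h photoperiod at 22 °C in the light and 16 °C in the dark. The treatments were soaks of 2 h in rounds on days 1 to 2, 7 to 8 and 13 to 14, without NaCl for the plants described here. The samples carry a labelled age of 6 to 7 weeks. Total RNA was prepared on day 15 after 4 h of light, and 100 ng of it was labelled with Cy3 and hybridised to a 1-colour Agilent array per sample. The other 7 samples came from salt-treated plants of the same accession and were not used.

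The labels call the tissue guard cells and do not say how these cells were separated from the leaf, how pure they were, or whether the 4 samples came from separate plants. The spread over arrays may therefore be technical. In bulk RNA of this kind, fewer cells of a type and less RNA per cell cannot be told apart.

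Guard cells flank the stomatal pore and change its width by moving ions and water. Plasma membrane proton pumps energise potassium uptake when the pore opens, and anion channels release chloride, nitrate and malate when it closes. Closure is driven by the hormone abscisic acid (ABA), whose PYR/PYL receptors hold clade A PP2C phosphatases in check and so free the kinase OST1, which acts on the anion channel SLAC1. Light, carbon dioxide and peptide signals reach the same transport proteins through photoreceptors, carbonic anhydrases and receptor kinases.

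Levels are given as the deposited log2 values, as mean ± SD over the 4 arrays, and percentiles are ranks among all 28718 loci. The mean level ran from 4.40 to 18.85, with a median of 8.32, and a locus belonged to the top 25% above 10.89. Of the 25195 loci with a matched probe, 17743 (70.4%) had a probe well above background on all 4 arrays and 5779 had none on any array. The remaining 1673 loci were above background on 1 to 3 arrays, and 3523 loci of the table had no probe matched by name. Loci whose own probe was below background on every array had a median level of 4.66, with 95% of them below 5.10, so values around 5 or less carry no order.

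A level is the brightness of a probe, and probes respond by their own sequence. The processed signals of probes for the same locus, all above background, differed by a median of 1.90 on the log2 scale (9601 probe pairs at 5527 loci). The range within a locus exceeded 5.08 at 10% of these loci. The SD over the 4 arrays had a median of 0.14. The order of loci below is thus well measured as an order of probe signals, while a difference of under about 1.90 between loci is within what separates probes of a single transcript.

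**Figure D1:**
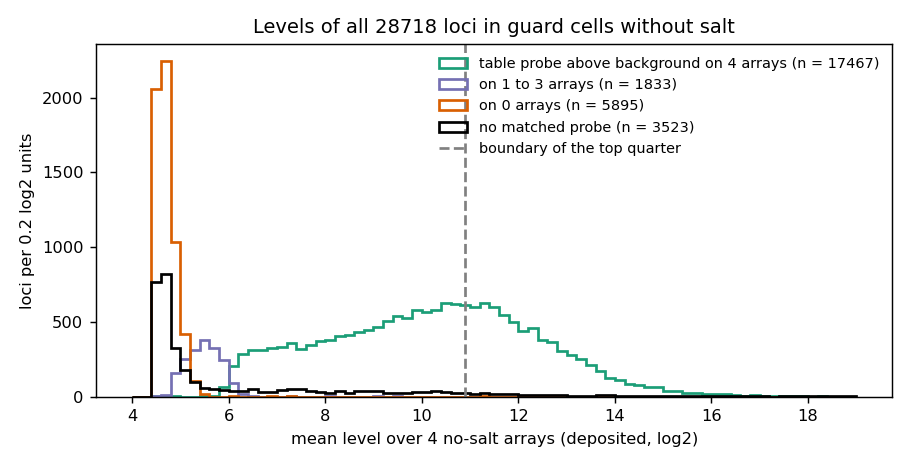
Number of loci per 0.2 log2 units against the mean deposited level over the 4 no-salt arrays, split by the number of arrays on which the locus's own probe was well above background. Loci never above background pile up at a median of 4.66, those above it on 4 arrays spread around a median of 10.28, and the dashed line marks the top 25% at 10.89.

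Transcripts of the photosynthetic machinery and of the organelle genomes led the ranking, together with ribosomal RNA and cold- and ABA-responsive proteins. The 10 highest loci held 4.90% of the summed linear signal of the table, the 100 highest 21.4% and the 1000 highest 51.8%. Loci of the chloroplast genome (ATCG identifiers) took 15 of the 30 highest places and 34 of the 100 highest. These 66 loci had a median level of 16.35 and held 10.8% of the signal, and 65 of them lay in the top 25%. The 82 loci of the mitochondrial genome (ATMG identifiers) held 1.44%, with 2 among the 30 highest and 36 in the top 25%. The gene table used here gives no names for either set. No probe was matched by name to the chloroplast and mitochondrial loci among the 30 highest, nor to AT3G41979, AT2G01010, AT3G32895 and DHAR1. The levels of all these loci were thus not checked against background, probe choice or the scan.

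The highest locus was ATCG00340, with 18.77, 18.83, 18.87 and 18.94 on arrays 1 to 4. ATCG00920 (18.81 ± 0.09), ATCG00540 (18.67 ± 0.20), ATCG01180 (18.63 ± 0.15) and ATCG00300 (18.58 ± 0.03) followed. The order of these chloroplast loci changed from array to array, since their differences were as small as their spread. The other chloroplast loci among the 30 highest were ATCG00020, ATCG00070, ATCG00490, ATCG00270, ATCG00470, ATCG00710, ATCG00280, ATCG00900, ATCG00420 and ATCG01020, between 18.33 and 17.69. ATMG01390 (17.64 ± 0.14) and ATMG00280 (17.59 ± 0.14) were the mitochondrial ones.

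Among nuclear loci, AT3G41979 (18.41 ± 0.16) and AT2G01010 (17.96 ± 0.12), both listed as ribosomal RNA in the gene table, stood beside protein-coding genes. CAB2 (LHCB1.1), a light-harvesting chlorophyll a/b-binding protein of photosystem II, had 18.28, 18.32, 18.22 and 18.61 on arrays 1 to 4. The photosystem I subunit PSAF had 17.94 ± 0.04, and PSAK of the same complex had 17.60 ± 0.18. Over the 56 loci that the gene table names as photosystem, light-harvesting or Rubisco small subunit genes, the median was 13.60, 49 lay in the top 25%, and they held 3.12% of the signal.

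KIN2 and KIN1, small hydrophilic proteins induced by cold and ABA, reached levels close to those of the photosystem genes. KIN2 had 18.02, 18.20, 18.16 and 18.16 on the 4 arrays, and KIN1 had 17.36, 17.69, 17.71 and 17.76. Array 1 was the lowest of the 4 for both. The cyclophilin ROC1 had 17.19, 18.02, 18.05 and 18.13, so its mean of 17.85 rests on an array 1 value well under the others. P58IPK, a DnaJ-type chaperone homologue, had 17.65 ± 0.05. DHAR1, a dehydroascorbate reductase that regenerates ascorbate, had 17.59 ± 0.23. AT1G23130 (18.24 ± 0.16), AT3G32895 (17.86 ± 0.17) and AT1G67870 (17.83 ± 0.20) completed the 30 and have no gene name in the table used here. Among those of the 30 with a matched probe, the 5 smallest SDs over arrays were those of PSAF, P58IPK, KIN2, AT1G23130 and CAB2.

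**Figure D2:**
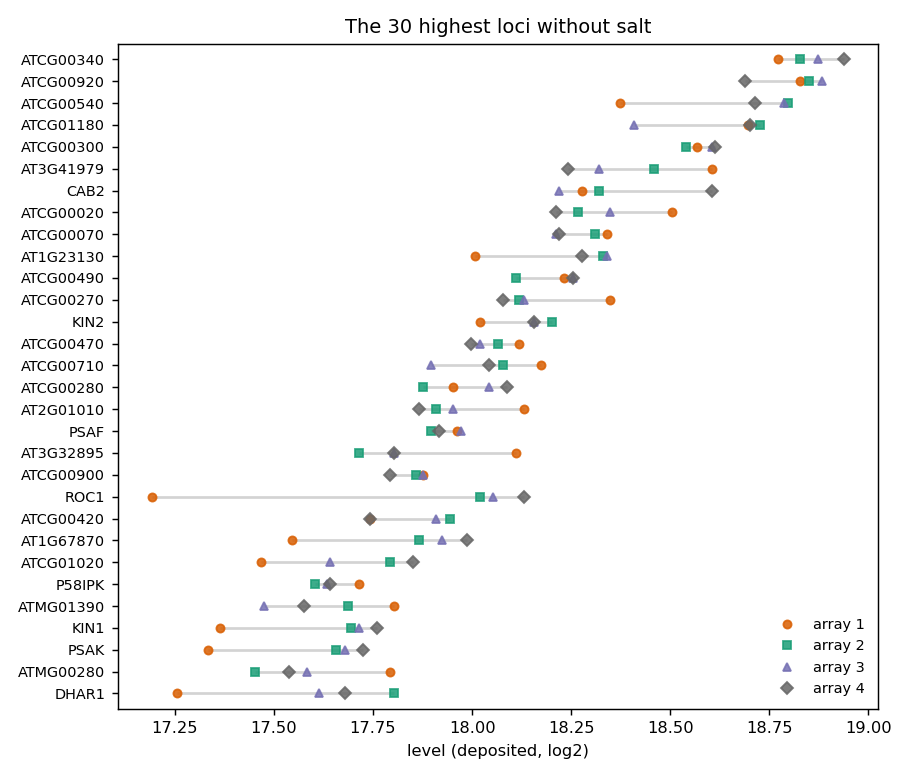
Deposited log2 level of the 30 highest loci on each of the 4 no-salt arrays, with a grey line from the lowest to the highest array. All values lie between 17.19 and 18.94, and ROC1 shows the widest gap, with array 1 at 17.19 and the others from 18.02 to 18.13.

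The gene families of ion transport and signalling held 238 distinct loci in 19 lists, of which 197 were above background on all 4 arrays, 23 on none, and 92 lay in the top 25%. Over all loci with a probe, 70.4% were above background on 4 arrays. In 4 of the 19 lists the highest member stood above the next by more than 1.90, the median difference between probes of a locus. In 13 of the 19 the brightest probe of each locus gave the same leading member as the table. In the others it put PIP2;6, TIP1;2, ACA8, AHG3, SnRK2.1 and CRY1 first.

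Plasma membrane proton pumps were led by AHA3 and AHA1. AHA3 had 15.34, 15.75, 15.60 and 15.74 on arrays 1 to 4, and AHA1, an isoform that acts in stomatal opening, had 14.87, 14.99, 14.73 and 14.81. Array by array AHA3 was above AHA1, by 0.76 on average, which is less than the spread between probes of a locus. AHA2 followed at 11.64 ± 0.10, and AHA5, AHA11, AHA8, AHA4, AHA10 and AHA7 came next in that order. AHA9 and AHA6 (4.72 ± 0.15) were not above background on any array.

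The vacuolar proton pumps, made of the subunits of the V-type ATPase and of pyrophosphatases, had the highest median of the families in the table, 12.09, with 21 of 28 members in the top 25%. By the brightest probe the PIP aquaporins had the higher median percentile, 94.7 against 91.4. The leading members were VHA-c2, a subunit of the membrane rotor, at 15.14 ± 0.11, VHA-D, of the central stalk, at 14.80 ± 0.17, and AT1G75630 at 14.18 ± 0.19. VHA-a3, the tonoplast form of the membrane subunit a, had 13.95 ± 0.04, while VHA-a1, of the trans-Golgi network, had 10.89 ± 0.08. The others, in descending order, were VHA-c1, VHA-c3, VHA-F, AT3G28710, AT3G42050, AT3G28715, AT4G26710, VHP2;1, AT2G16510, VHA-a2, VHA-G1, VHA-B1, AVP1, VHA-E1, AT5G55290, VHA-E3, VHA-C, VHA-G2, VHA-G3, VHA-B2, VHA-A and VHA-B3. Only VHA-E2 (4.93 ± 0.05) was above background on no array. The catalytic subunit VHA-A had a table value of 7.27 ± 0.46, at percentile 42.7, but the brightest of its 3 probes lay in the top 25%.

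Among Shaker potassium channels, AKT2 and KAT1 were the highest. AKT2, a weakly rectifying channel best known from the phloem, had 13.80, 13.76, 13.79 and 13.66, and KAT1, the inward channel of guard cells, had 12.51, 12.77, 12.83 and 12.97. The 2 sets of values did not overlap, and the difference of 0.98 was within the spread between probes. KAT2 (10.48 ± 0.31), GORK, the outward channel of guard cells (10.24 ± 0.17), KAT3, AKT1 and SKOR followed. AKT5 and SPIK (4.48 ± 0.06), the latter a pollen channel, were not above background on any array.

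The anion channels showed a split between members with clear signal and members at the floor. SLAC1, the S-type channel that guard cells use for closure, had 11.06, 11.73, 11.24 and 11.33, and SLAH3 had 10.89, 11.36, 11.33 and 11.21. The values of SLAC1 and SLAH3 overlapped. SLAH2 (5.38 ± 0.25) was above background on 1 array, and SLAH1 and SLAH4 (4.70 ± 0.10) on none.

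In the ALMT list, AT1G68600 led with 13.43 ± 0.11, ahead of ALMT12, the R-type channel QUAC1 of guard cells, which had 10.59, 11.37, 11.51 and 11.60. ALMT12 was thus lowest on array 1, apart from 3 closer values. AT1G25480 (10.19 ± 0.06), ALMT6, AT5G46600 and ALMT9, a chloride channel of the vacuole, were also above background on 4 arrays. AT2G27240, AT3G11680, ALMT1 and AT1G08440 were so on 1 or 2 arrays, AT1G18420, AT4G17585 and AT5G46610 on none, and AT4G00910 (4.53 ± 0.05) had no matched probe. The 7 CLC chloride channels and exchangers lay closer together and were all above background: CLC-D (11.03 ± 0.25), CLC-C (10.76 ± 0.19) and CLC-A (10.64 ± 0.19), the nitrate exchanger of the vacuole, were followed by CLC-G, CLC-F, CLC-B and CLC-E (8.96 ± 0.24).

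For cation channels of the vacuole, TPC1, the slow vacuolar channel, had 13.21 ± 0.14 and the potassium channel TPK5 had 11.38 ± 0.11. TPK3 was lower and above background on 4 arrays, while KCO3, TPK2 and TPK4 (4.54 ± 0.09) were above background on no array.

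Of the 20 cyclic nucleotide-gated channels, which carry calcium, 16 were above background on 4 arrays and 7 lay in the top 25%, or 4 when only loci above background were ranked. CNGC5 (13.01 ± 0.06), CNGC2 (12.90 ± 0.14) and CNGC1 (12.89 ± 0.13) had overlapping values. CNGC3, CNGC20, CNGC6, CNGC17, CNGC15, CNGC11, CNGC4, CNGC13, CNGC9, CNGC10, CNGC19, CNGC12 and CNGC18 followed in that order. CNGC14, CNGC16 and CNGC8 were above background on 1 array each, and CNGC7 (4.70 ± 0.12) had no matched probe. The glutamate receptor-like channels of clade 3 were led by GLR3.4 (12.47 ± 0.06), GLR3.5 (11.34 ± 0.23) and GLR3.7 (10.62 ± 0.06), with GLR3.6, GLR3.3, GLR3.2 and GLR3.1 (8.88 ± 0.10) below them. The 6 with a matched probe were above background on every array.

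The calcium pumps, which clear calcium from the cytosol, were led by ACA1, with 12.04, 12.73, 12.84 and 13.00. ACA11 (12.35 ± 0.16) and ECA4 (12.29 ± 0.11) fell within the range of ACA1, whose array 1 value was the lowest of the 3. By the brightest probe ACA8 led the list, at percentile 89.1. ECA1, ECA2, ACA2, ACA4, ACA8, ACA13, ECA3 and ACA10 were also above background on 4 arrays, ACA12 on 2, and ACA7 and ACA9 (4.71 ± 0.13) on none.

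The order of the water channels changed with the probe. Among plasma membrane aquaporins, the table put PIP1;2 (13.12 ± 0.07), PIP1;5 (12.35 ± 0.17) and PIP2;2 (11.88 ± 0.20) first. PIP1;3, PIP1;1, PIP2;1, PIP2;6, PIP2;3, PIP2;7, PIP1;4, PIP2;8 and PIP2;5 followed, and PIP2;4 (5.75 ± 0.38) was above background on 1 array. Of the 8 members with several probes, 6 rose by over 20 percentile points when the brightest probe stood for the locus, and PIP2;6, at percentile 61.2 in the table, then led the list at percentile 99.4. PIP2;1, an aquaporin required for ABA-driven closure in Arabidopsis, moved from percentile 67.9 to 99.3. In the vacuolar list TIP1;1 (14.08 ± 0.07), TIP2;2 (10.58 ± 0.16) and TIP1;2 (8.51 ± 0.15) led, ahead of TIP2;1, TIP5;1 and TIP4;1. TIP2;3 was above background on 1 array, and TIP3;1, AT1G17810 and TIP1;3 (4.61 ± 0.01) on none. By its brightest probe TIP1;2 led that list. The PIP genes are close copies of each other, so signal can be shared between them.

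ABA receptors differed widely among themselves. PYR1 had 14.27, 14.52, 14.55 and 14.58, and PYL7 had 11.99, 11.86, 12.15 and 12.12, so the groups of values were far apart, by 2.45 on average. PYL1 (10.67 ± 0.31), PYL9, PYL8, PYL4, PYL5, PYL2 and PYL6 made up the rest of the 9 receptors above background on all arrays. PYL10 was so on 1 array, and PYL3, PYL11, PYL12 and PYL13 (4.61 ± 0.13) on none.

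The PP2C phosphatases, targets of these receptors, were led by ABI1 (14.37 ± 0.10), AHG3 (13.35 ± 0.19) and ABI2 (12.60 ± 0.15), followed by HAB2, HAB1, HAI2 and HAI1. HAI3 was above background on 1 array and AHG1 (4.66 ± 0.08) on none. All 10 SnRK2 kinases were above background. SnRK2.3 (13.00 ± 0.17), SnRK2.1 (12.04 ± 0.10) and SnRK2.10 (12.00 ± 0.12) were the highest, then SnRK2.2, SnRK2.4, SnRK2.7, OST1, SnRK2.5, SnRK2.9 and SnRK2.8 (7.24 ± 0.14). OST1, the kinase that guard cells need for closure by ABA, thus ranked in the lower part of its family, with 9.52, 9.98, 10.18 and 10.01.

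**Figure D3:**
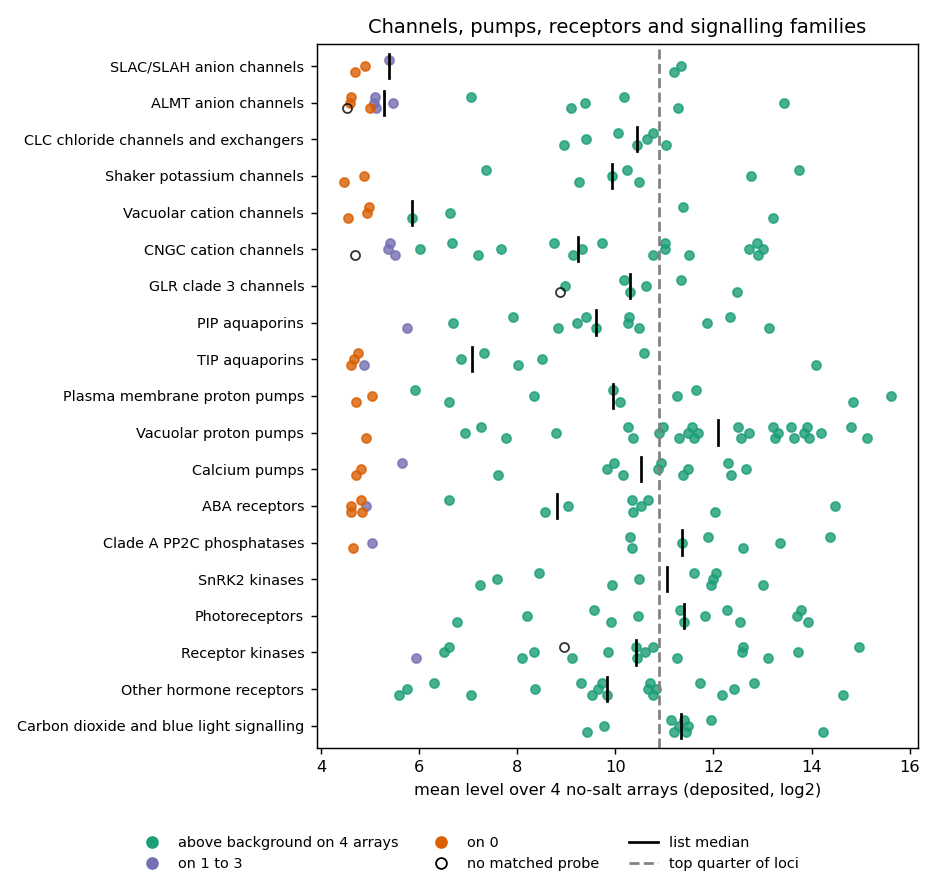
Mean deposited log2 level of every member of the 19 transport and signalling lists (points, coloured by the number of arrays above background), with the list median (black bar) and the boundary of the top 25% (dashed line at 10.89). Vacuolar proton pumps have the highest list median in the table, 12.09, while SLAC/SLAH and ALMT channels split into members above 7 and members near the floor.

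All 13 photoreceptors were above background on 4 arrays, and 8 lay in the top 25%. The cryptochromes CRY2 (13.93 ± 0.08) and CRY1 (13.70 ± 0.12), both blue-light receptors, stood highest together with the red and far-red receptor PHYA (13.78 ± 0.11), whose values overlapped with those of both. UVR8, PHOT2, PHYB, FKF1, ZTL, PHYC, PHYD, LKP2, PHOT1 and PHYE (6.76 ± 0.25) followed. PHOT1, a phototropin through which blue light opens stomata, stood at percentile 49.0 in the table and at percentile 96.7 by the brighter of its 2 probes.

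The list of receptor kinases and related receptors of development and immunity was led by RLK7, a peptide receptor, with 14.77, 15.04, 15.03 and 15.05. ERECTA, which patterns stomata, had 13.72 ± 0.09, and FER, the receptor of RALF peptides, had 13.11 ± 0.15. The chitin receptor kinase CERK1, PEPR1, LYK5, TMM, PEPR2, SERK1, the flagellin receptor FLS2, ERL2, EFR, GHR1, SERK2, AT5G49760, BAK1 and BRI1 followed. The places of SERK2, BAK1 and BRI1 depend on the probe, since the brightest probe of each puts it at percentile 91.0, 78.4 and 79.3. ERL1 (5.94 ± 0.14) was above background on 3 arrays, and GHR1 had no matched probe.

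The other hormone receptors were all above background on 4 arrays. The karrikin receptor KAI2 (14.63 ± 0.14), the auxin receptor AFB3 (12.82 ± 0.15) and the cytokinin receptor AHK3 (12.43 ± 0.09) led. ERS1, COI1, AHK4, D14, GID1A, AFB1, EIN4, GID1B, ERS2, GID1C, AHK2, ETR2, AFB2, AFB5, TIR1 and ETR1 (5.60 ± 0.20) came after. The lowest of them, the ethylene receptor ETR1, moved from percentile 32.2 to 87.2 with its brightest probe, so its place at the end of the list depends on the probe.

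Of the 10 genes of carbon dioxide and blue-light signalling, all were above background and 8 lay in the top 25%. By the brightest probe of each locus, ranked over loci with a probe, 3 did. The carbonic anhydrase BCA1 (14.23 ± 0.11) stood highest, then AT5G06970 (11.95 ± 0.07), the kinase MPK12 (11.49 ± 0.25), BCA4, MPK4, AT5G50000, AT4G22790 and AT3G01490. The kinases HT1 (9.77 ± 0.33) and BLUS1 (9.43 ± 0.33), which act in guard cells on the carbon dioxide and blue-light responses, were the lowest.

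Guard cell markers were present throughout. All 16 of the 17 markers that had a matched probe were above background on 4 arrays, against 70.4% of all loci, and 8 of the 17 lay in the top 25%. Ranked among loci above background alone, 4 did. The myrosinase TGG2 had 14.65, 14.61, 14.90 and 14.57. AT1G22690 had 12.81, 13.48, 13.54 and 13.39, and TGG1 had 13.06, 13.10, 13.11 and 12.75. The transcription factors FAMA (11.06 ± 0.40), MYB60 (10.71 ± 0.32) and SCAP1 (9.03 ± 0.44), which set guard cell identity or function, lay from percentile 76.8 down to 55.8. The lowest marker, CYP86A2 (7.87 ± 0.28), stood at percentile 98.4 by the brighter of its 2 probes. No guard cell marker with a matched probe was at the floor.

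Mesophyll and photosynthetic transcripts were high: 20 of 21 had a matched probe, all 20 were above background on 4 arrays, and 19 of the 21 lay in the top 25%, around a median of 12.69. LHCB1.1 (18.36 ± 0.17), LHCB1.4 (17.32 ± 0.09) and RBCS3B (17.03 ± 0.15) were the highest, and the lowest, EPFL9, the mesophyll-made peptide stomagen, still had 10.15 ± 0.16. Guard cells have chloroplasts of their own, so the light-harvesting and Rubisco genes do not separate the cell types, and the LHCB1 and RBCS genes are near-identical copies whose probes can share signal. EPFL9 and the photorespiratory genes were also above background: the glycolate oxidase GOX2 had 14.52 ± 0.17 and the glycine decarboxylase subunit GLDP1 had 11.59 ± 0.34. The part of mesophyll cells in these levels was not tested.

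All 12 markers of pavement cells and general epidermis were above background on 4 arrays, and 7 lay in the top 25%. The lipid transfer proteins LTP1 (16.38 ± 0.15) and LTP2 (13.82 ± 0.19) and the wax and cutin gene FDH (13.62 ± 0.12) led. The lowest, PDF1, had 7.56 ± 0.44. Of 8 trichome genes, TTG1, a regulator also used outside trichomes, had 12.69 ± 0.14, TRY had 8.86 ± 0.15 and GL2 had 8.44 ± 0.41. GL1, which starts trichome fate, was above background on no array and GL3 on 1.

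Vascular transcripts were uneven. All 10 phloem markers were above background on 4 arrays and 7 lay in the top 25%, around a median of 12.94. The phloem lectin PP2-A1 had 16.03, 16.31, 16.47 and 16.47, at percentile 99.7, and AHA3, also counted above among the proton pumps, had 15.34 to 15.75. SEOR2, a sieve element occlusion protein, had 13.65 ± 0.25, and the lowest, CALS7, which makes sieve plate callose, had 8.59 ± 0.18. The sucrose carrier SUC2 of companion cells was at percentile 78.0 in the table and at 98.8 by its brightest probe.

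Of the 10 xylem genes, none lay in the top 25%, and the list median was 7.83. On 4 arrays 7 were above background, a share close to the 70.4% of all loci, and 9 were so on the 3 arrays other than array 1. The protease XCP2 (10.56 ± 0.20), the laccase LAC4 (9.14 ± 0.27) and the cellulose synthase CESA8 (8.39 ± 0.15) were the highest. IRX9, MYB46 and VND7 were above background on 2 or 3 arrays. The part of vascular cells in these levels was not tested. In the bundle sheath list, the sulfate transporter SULTR2;2 had 11.49 ± 0.12, MYB76 had 9.07 ± 0.10 and SCR had 5.58 ± 0.24, all above background.

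Genes of the stomatal lineage before the guard cell stage were mostly near the floor. TMM (10.77 ± 0.18), EPF1 (9.41 ± 0.32) and BASL (6.20 ± 0.15) were above background on 4 arrays. SPCH and MUTE, which drive entry into and exit from the dividing lineage, were above background on 1 array each, EPF2 on 2 and POLAR on none.

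Genes of tissues that a leaf sample should lack were at the floor, with exceptions. None of the 6 root hair genes, COW1 (4.95 ± 0.22), RHD6 (4.67 ± 0.06), RSL4 (4.61 ± 0.30), PRP3, EXPA18 and EXPA7, was above background on any array. Of 8 seed storage genes, SESA3 (4.90 ± 0.22) and OLEO2 were above background on 1 array each, and SESA4 (4.85 ± 0.30), CRU3 (4.70 ± 0.11), SESA2, CRA1, OLEO1 and SESA1 on none. VGD1, TIP1;3, PPME1 and SPIK of the pollen list were on none. The other pollen-list genes, AHA8 (9.96 ± 0.07), TIP5;1 (7.32 ± 0.31) and CNGC18 (6.01 ± 0.17), were above background on all 4 arrays. They are members of the pump, aquaporin and channel families and were listed for their known use in pollen. Of 8 housekeeping genes, AT5G60390 (16.76 ± 0.11), GAPC1 (16.33 ± 0.16) and UBQ10 (16.18 ± 0.12) were the highest, and 7 lay in the top 25%. ACT8, at 8.81 ± 0.39, was the lowest in the table and stood at percentile 92.3 by its brighter probe.

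**Figure D4:**
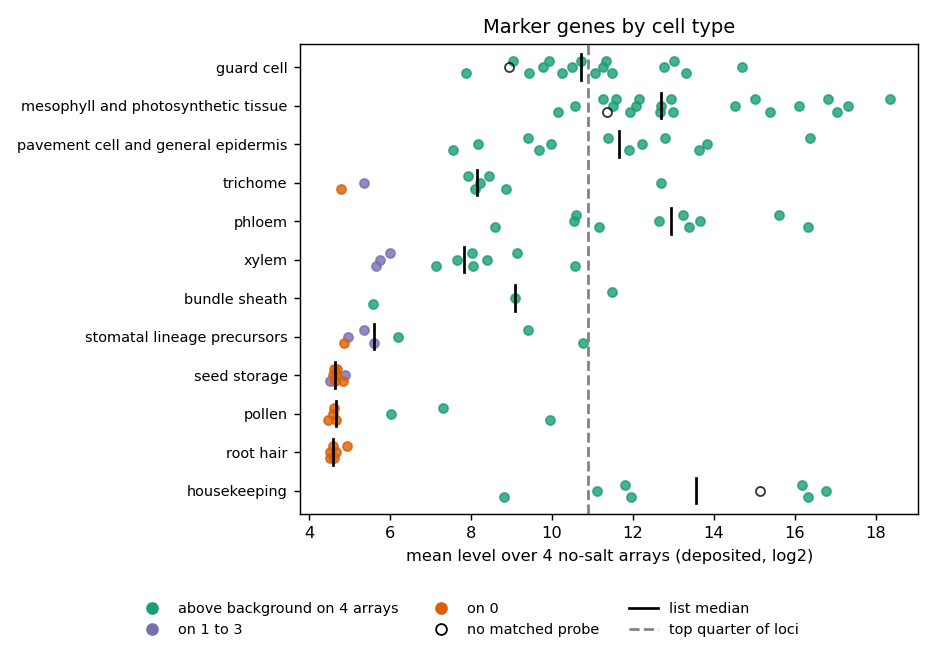
Mean deposited log2 level of every gene of the 12 marker lists (points, coloured by the number of arrays above background), with list medians (black bars) and the boundary of the top 25% (dashed). Phloem and mesophyll genes have list medians of 12.94 and 12.69, guard cell genes 10.71, xylem genes 7.83, and root hair and seed storage genes lie at the floor.

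The 4 arrays were alike, with array 1 set apart from the others. Over 17467 loci whose probe was above background on all arrays, the SD of the difference was 0.31 to 0.37 for pairs with array 1 and 0.18 to 0.23 for the other pairs. A locus was counted as apart on an array under 3 conditions. The array lay outside the range of the others, was more than 1 log2 unit from their mean, and the others spanned at most 1. Array 1 was apart in this way at 47 loci in the upward and 109 in the downward direction. Array 2 was so at 3 and 2 loci, array 3 at 1 and 22, and array 4 at 1 and 4. Array 1 also had the lowest 75th percentile of processed intensity, 1342, against 1789 to 2105. The slides of the arrays were not examined, so slide and replicate are not separated here, and the part of either was not tested.

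Several marker lists moved with that array, to different degrees. Guard cell markers were lowest on array 1 in 14 of 17 cases, and their median level was 10.26 there and 10.74, 10.95 and 10.91 on arrays 2 to 4. Mesophyll genes were highest on array 1 in 15 of 21 cases, with medians of 13.29, 12.58, 12.53 and 12.51. Over all loci above background, 39.3% were lowest and 29.0% were highest on array 1. The xylem genes, all 10, were lowest on array 1, and their median was 7.33 there and 7.88 to 7.99 on the others. Array 1 was lowest for 6 of 12 epidermis, 6 of 10 phloem and 6 of 7 stomatal lineage genes. It was highest for 3, 0 and 0 of them. The summed linear signal of the guard cell list was 0.0799% of all signal on array 1 and 0.0892% to 0.100% on the others, and that of the mesophyll list was 1.31% on array 1 and 1.17% to 1.31% on the others. The mesophyll sum on array 1 was close to that on array 4, while its median stood clear of the other 3.

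Genes of touch, wounding and jasmonate signalling, in a list drawn up after their values were seen, were high without salt and mostly lowest on array 1. All 28 were above background on 4 arrays and 27 lay in the top 25%. AOS, which makes the precursor of jasmonate, had 15.62, 16.01, 16.07 and 16.21, and the repressor JAZ9 had 15.59, 16.04, 15.78 and 15.82. LOX3, a lipoxygenase of the same pathway, had 13.33, 14.48, 14.66 and 14.72, and the touch-induced wall enzyme TCH4 had 13.48, 14.54, 14.59 and 14.71. In each of these genes array 1 was the lowest. This held for 25 of the 28, and the list medians were 12.70, 13.41, 13.43 and 13.45. The exceptions were LOX2, CBF3 and CBF1. As the members were picked with their values known, these counts and medians describe the list and test nothing.

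A second list drawn up after values were seen, of 11 cold- and ABA-responsive protective proteins, had a median of 15.71. Its members were picked with their levels known, so this median is not ranked against the other lists. Besides KIN2 and KIN1, the dehydrin ERD10 had 16.28, 16.70, 16.72 and 16.71, COR15A, which protects chloroplast membranes, had 16.34 ± 0.14, and RD29A had 15.54, 15.67, 15.76 and 15.86. RD29B, an ABA-responsive relative of RD29A, was the only member outside the top 25%, with 9.69, 8.91, 8.06 and 8.98. RD29A and RD29B thus stood at percentiles 99.4 and 54.8, a difference of more than the range of probes at 9 in 10 loci.

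**Figure D5:**
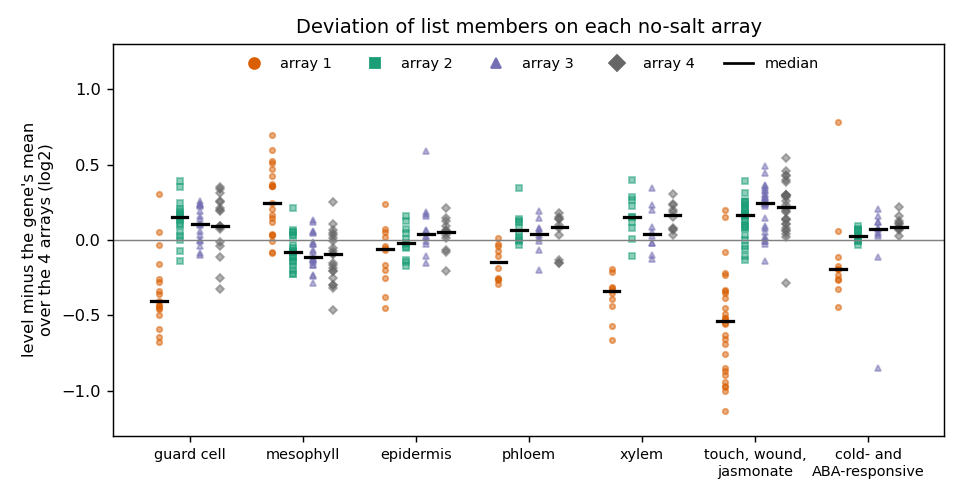
Level of each list member minus its own mean over the 4 no-salt arrays (log2), by array, with black bars at the median of the list. On array 1 the medians of the guard cell, xylem and touch, wound and jasmonate genes lie below zero and that of the mesophyll genes above it, though single genes depart from their list.

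The loci with the largest SD over arrays included values found in the table alone. CLC2, a clathrin light chain, had deposited values of 14.15, 4.33, 13.93 and 13.89, and AT5G67340 had 9.53, 4.30, 9.29 and 9.24. On array 2 the scanner's median intensity of their spots was 18588 and 736, which on the scale of the table would be 14.29 and 9.62, so the low values are in the deposited table and not in the scan. AT2G14255 (10.46, 8.21, 8.27 and 8.14) could not be matched to its probe's signal. Over 24953 loci whose table values followed 1 of their probes within 0.3, 5 single values departed from the scan by more than 1. The array 2 values of CLC2 and AT5G67340 were among these 5.

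The other loci of large SD were apart on array 1, on array 3 or on both. The thioredoxin TH8 (6.74, 8.53, 8.77 and 8.33) and the expansin-like EXLA3 (7.02, 8.93, 8.74 and 8.72) were low on array 1. AT1G15125 (11.44, 9.85, 9.87 and 9.33), the acyltransferase AACT1 (7.68, 6.08, 6.02 and 5.61), the cytochrome P450 CYP71B20 (11.18, 9.44, 9.48 and 9.39) and AT4G10500 (9.77, 8.18, 7.94 and 8.28) were high on array 1. AT2G21430 (12.42, 12.11, 10.47 and 12.31) was low on array 3 alone. The zinc finger gene DAZ2 (9.24, 7.99, 7.03 and 8.15) and AT5G07850 (9.09, 8.19, 6.92 and 8.27) were high on array 1 and low on array 3.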

How the data were processed

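The deposited values are log2 levels per locus, and how the authors made them was not given in the sources used here. The no-salt columns were recognised by the NaCl dose of 0 and the replicate number in their names, and their deviations correlated with their own arrays at 0.61 to 0.84 and with no other above -0.02. In the same file 7 columns of other samples were not used. The authors' scanner files hold processed and raw median intensity per spot, written by version 11.5.1.1 of Agilent's extraction software per the file headers, with 43603 probes per array, 66.6% to 71.6% of spots well above background and none saturated. Probes were matched to loci by name with the help of a TAIR10.1 gene table.

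Single-probe levels differed from a smooth curve of the raw median intensity by a median of 0.0097. At 4076 loci whose probes lay over 1.5 apart, 98.9% of levels lay within 0.3 of a single probe, the brightest in 40.9% and the dimmest in 49.3%. Tested on simulated data, this matching recovered the probe at 99.9% of 6936 loci. Percentiles by brightest probe use log2 processed intensity, scaled to the 75th percentile of the array, over matched loci. No comparison between groups was tested, as 1 group of 4 arrays is described, whose number limits the precision. Dixon's criterion was used to find arrays apart from the rest.

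The text names the 30 highest loci, all members of each family (values for the highest 3 and the lowest), the highest 3 and undetected genes of each marker list, the 12 loci of largest SD and, of the 30, the 5 steadiest with a matched probe, with further genes chosen for their known role. A member of the vacuolar cation channel list is not reported here. Members and lists were chosen with earlier results of these data known, and 12 lists were added after values were seen. The planned promoter motif search was not run, as no sequences were given. Tools were python 3.11.15, pandas 2.3.3, statsmodels 0.14.6, matplotlib 3.10.9, R 4.3.3, limma 3.58.1 and data.table (version 1.17.8).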

Additional observations from a re-analysis of the deposited data

Results flagged for a closer look

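Of 172 list medians, levels and array measures examined over the 4 arrays, 13 had 1 array apart from the rest by the Dixon criterion, or 7.56%. Chance flags about 1 in 20 independent groups, but these items overlap and the touch, wound and jasmonate list was drawn up after values were seen, so the share is no test. Array 1 was the one apart in 7 of them. It was high for the median of the mesophyll genes, 13.29 against 12.51 to 12.58, and for that of the vacuolar cation channels, 6.71 against 5.49 to 5.66. The latter median is the value of 1 locus of 7. Of the 7 channels, 3 were highest and 2 lowest on array 1, so the list as a whole was not shifted. Array 1 was low for the xylem genes, 7.33 against 7.88 to 7.99, and for the touch, wound and jasmonate genes, 12.70 against 13.41 to 13.45. Single loci low on array 1 were the cyclophilin ROC1, 17.19 against 18.02 to 18.13, KIN1, 17.36 against 17.69 to 17.76, and the receptor kinase RLK7, 14.77 against 15.03 to 15.05.

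The remaining flagged values were single loci apart on array 2, 3 or 4. Array 3 was low for the chloroplast locus ATCG01180, 18.41 against 18.70 to 18.73, for the aquaporin PIP2;2, 11.58 against 11.95 to 12.01, and for LHCB1.4, 17.19 against 17.36 to 17.37. It was high for the channel CNGC5, 13.09 against 12.97 to 12.98. Array 2 was low for ATCG00490, 18.11 against 18.23 to 18.25, and array 4 for the myrosinase TGG1, 12.75 against 13.06 to 13.11.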

How the results depend on the processing

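For the 31 lists planned, counts of members above background stayed the same except for xylem, 9 in place of 7 with 3 of 4 arrays or without array 1, and receptor kinases, 17 in place of 16 with 3 of 4 arrays or without array 3. The lists added later were not run. Over all loci 17743 became 18053 with 3 of 4 arrays, 17730 with the brightest probe alone, and 17749 to 17874 with an array left out. The SD over arrays, 0.14, was 0.11 to 0.15 with an array left out and 0.11 on processed signal. The ranking depended on the probe. Of the 100 highest loci with a probe, 48 were shared with the brightest probe's processed signal, 47 after normexp (offset 50, on the median signal in the scanner files) and quantile normalisation, 71 with the mean of probes, and 97 to 98 with an array left out. Members in the top 25% moved under both brightest-probe settings to 0 for SLAC/SLAH, 1 for ALMT, 1 for vacuolar cation channels, 9 for PIP, 4 for TIP, 1 for GLR, 10 for other hormone receptors and 3 for carbon dioxide and blue light, and under normexp to 0 for bundle sheath. With the mean of probes they were 1 for vacuolar cation channels and 5 for PIP. Ranked only over loci above background, which leaves fewer loci, they were 0 for SLAC/SLAH, CLC and bundle sheath, 1 for ALMT, vacuolar cation channels and GLR, 2 for plasma membrane proton pumps and for carbon dioxide and blue light, 3 for calcium pumps, and 4 for CNGC and guard cell. No member of the SLAC/SLAH and GLR lists had several probes, so no other probe stood in for them. SLAC1 was at percentile 79.9 over all loci and 78.2 among loci with a probe. By the brightest probe of each locus it was at 73.5. The cause of the brightest-probe moves was not tested.

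Chosen after seeing the data, leaving out array 1 gave list medians of 13.47 for touch, wound and jasmonate genes, 12.54 for mesophyll, 10.86 for guard cell, 7.99 for xylem and 5.57 for vacuolar cation channels. Leaving out array 2 gave SDs of 0.14 for CLC2 and 0.16 for AT5G67340, against 4.83 and 2.53. No paired analysis was possible because a single group of samples was described.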

Other observations

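Further families of ion and sugar transport, listed after values were seen, held high and undetected members. Their shares above background on 4 arrays are to be read against 70.4% of all loci. Their members were found by gene name, so a list can lack members of its family. Among 28 CHX cation exchangers 16 were above background on no array and 5 on all 4. CHX20, a potassium exchanger of guard cells, had 13.14, 13.34, 13.24 and 13.36. It stood 3.88 above CHX16 (9.39 ± 0.14), the next member. Of the 12 KUP/HAK potassium transporters 11 were above background on 4 arrays, led by KUP11 (13.71 ± 0.16), and HAK5, the high-affinity carrier of roots, was above background on none. The hexose carrier STP1 had 14.93, 15.10, 15.01 and 15.09, and 6 of 10 STP genes were above background on 4 arrays. Of the 17 SWEET sugar exporters 9 were so, with SWEET13 (13.92 ± 0.08), SWEET12 (13.23 ± 0.16) and SWEET1 (13.20 ± 0.06) the highest in the table. By the brightest probe of each locus SWEET11 led the SWEET list.

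Calcium and redox signalling genes included high and undetected members, with shares above background to be read against 70.4% of all loci. RBOHD, the NADPH oxidase of immune and wound signalling, had 12.65, 13.12, 13.36 and 13.30. RBOHF, which acts with RBOHD in closure by ABA, had 10.00 ± 0.10. Of the 7 RBOH genes found by name, 4 were above background on no array. The calcium-dependent kinase CPK32 (14.84 ± 0.26) led 34 CPK genes, 22 of them above background on 4 arrays, and CIPK6 (15.11 ± 0.14) led 26 CIPK kinases, 22 of them above background. Their partners the CBL calcium sensors were led by CBL2 (12.41 ± 0.12), with 7 of 10 above background. The vacuolar exchanger CAX1 (14.04 ± 0.09) led 9 CAX genes, 7 of them above background. The 5 beta carbonic anhydrases found by name lay in the top 25%.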
